A study of Mus musculus with 8 samples.

Results

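A set of 10 genes of the insulin-like growth factor (IGF) axis was examined in sacral neural crest cells of mouse embryos: the ligand Igf1, the carrier genes Igfbp1 to Igfbp6, the protease Pappa2, the protease inhibitor Stc1 and the RNA-binding protein gene Igf2bp1. They are 10 of the 6855 genes tested, and each is given by its brightest probe set, with all 3 probe sets shown for Pappa2. The list was chosen by gene symbol around Pappa2, which had been found higher in the mutant on these same arrays, so the genotype values of the members, and the calls that a fit over all genes gave them, are a description and no independent test. Expression was measured on 8 Affymetrix Mouse Gene 1.0 ST arrays. Of these, 4 came from embryos with 2 copies of Dom (Dom/Dom), a frameshift mutation of the neural crest transcription factor gene Sox10, and 4 from wild-type (WT) embryos. In both genotypes, neural tube from behind somite 24 was explanted at embryonic day 9.5 and grown for 24 hours in 10% serum, and RNA came from the cells that had crawled out. Serum itself carries IGFs and their binding proteins as proteins, which an RNA measurement does not see. No label gives the number of embryos behind an array or says that replicates were separate embryos or litters, so the spread between arrays may be partly technical.

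IGFs are secreted growth factors that act through a receptor tyrosine kinase and its PI3 kinase and MAP kinase branches. In tissues they are held by 6 high-affinity binding proteins, the products of Igfbp1 to Igfbp6, which keep them from the receptor until they are released. Pappa2 encodes a secreted metalloprotease that cleaves the products of Igfbp3 and Igfbp5, and Stc1 encodes a stanniocalcin, a glycoprotein whose human family members inhibit such proteases. Igf2bp1 is a different kind of gene: its product binds messenger RNAs, among them that of Igf2, and does not bind the growth factor. The genes of the IGF receptors and of Igf2 were not analysed here.

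The promoters of Pappa2, Igf1 and Igfbp5 are shown because these 3 genes had the largest genotype differences of the list. Each run holds the 250 bases before and 50 bases after the annotated start in RefSeq (build GRCm38.p6), read 5′ to 3′ on the gene's own strand. Capitals mark matches to either form of the core SOX site, ACAAAG or ACAATG, or to the TATA box TATAAA, searched on both strands. The 3 windows are chr1:158958126-158958425 on the minus strand for Pappa2, chr10:87860861-87861160 on the plus strand for Igf1, and chr1:72874816-72875115 on the minus strand for Igfbp5.
Pappa2: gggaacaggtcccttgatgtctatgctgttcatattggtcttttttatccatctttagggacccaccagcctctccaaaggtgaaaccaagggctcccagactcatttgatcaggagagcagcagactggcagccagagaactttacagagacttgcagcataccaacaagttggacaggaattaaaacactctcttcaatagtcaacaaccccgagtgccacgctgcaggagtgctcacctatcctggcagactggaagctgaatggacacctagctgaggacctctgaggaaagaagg
Igf1: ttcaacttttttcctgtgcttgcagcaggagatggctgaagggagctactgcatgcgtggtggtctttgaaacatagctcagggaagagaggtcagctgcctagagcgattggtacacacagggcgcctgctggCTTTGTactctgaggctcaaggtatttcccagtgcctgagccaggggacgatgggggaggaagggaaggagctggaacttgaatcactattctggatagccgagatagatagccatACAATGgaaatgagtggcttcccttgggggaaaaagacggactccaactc
Igfbp5: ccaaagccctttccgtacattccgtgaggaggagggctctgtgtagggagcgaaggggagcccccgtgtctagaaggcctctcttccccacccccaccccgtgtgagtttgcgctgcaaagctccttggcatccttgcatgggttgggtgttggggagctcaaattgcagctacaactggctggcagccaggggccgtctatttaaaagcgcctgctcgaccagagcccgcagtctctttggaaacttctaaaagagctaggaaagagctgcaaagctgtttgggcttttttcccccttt
The Igf1 window held 2 SOX matches, 1 of each form, and the Pappa2 and Igfbp5 windows held none. Either SOX form occurs in 28.6% of the 32851 promoter windows in the table and the TATA box in 13.6%, so such a match is common. In all, 8 of the 10 members had at least 1 window there, and the other windows held no SOX match. Those of Igfbp4 and Igfbp6 held the letters TATAAA, on the gene's own strand for Igfbp4 and on the opposite strand for Igfbp6. The guanine and cytosine content was 49.7% for Pappa2, 52.3% for Igf1 and 56.3% for Igfbp5, against 71.7% for Igfbp3 and 71.3% for Igfbp4.

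Values are log2 levels after robust multi-array averaging (RMA), so a difference of 1 is a doubling, and each probe set has its own brightness, which is why levels are compared between arrays and not between genes. Sox10 stood at 10.50 ± 0.40 in Dom/Dom and 11.69 ± 0.18 in WT (SD, n = 4 each), a difference of -1.20, or 2.29-fold lower in Dom/Dom. Since the mutant gene is transcribed too, the labels cannot be checked from it. Of 10 neural crest markers 8 were measured, all above the 95th percentile of 213 olfactory receptor probe sets (8.22), which stand for genes silent in such cells. The mean level of these markers was 11.30 to 11.47 in Dom/Dom and 11.82 to 12.18 in WT. Same-numbered arrays of the 2 genotypes varied together, as described with the processing. Differences are therefore also given by replicate number, called pairs below. Standard errors come from the fit over all genes, in limma, which draws each gene's variance toward a shared value. They do not follow from the gene's own SDs alone.

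Pappa2 was higher in Dom/Dom in every pair and on each of its 3 probe sets. On the brightest, probe set 10359280 on chromosome 1, the levels were 9.18, 9.37, 9.15 and 9.26 in Dom/Dom replicates 1 to 4, against 8.71, 8.49, 8.68 and 8.73 in WT replicates 1 to 4. The lowest mutant array lay above the highest wild-type array, with a gap wider than the range within either genotype. The mean difference was 0.59 with a standard error of 0.09, which is 1.51-fold. By pair it was 0.47, 0.88, 0.48 and 0.53, and the larger value of pair 2 came from both a high mutant and a low wild-type array.

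The second probe set, 10359282, read 8.92, 9.04, 8.95 and 9.21 in Dom/Dom, against 8.77, 8.27, 8.61 and 8.62 in WT. Here WT replicate 1 came close to the lowest mutant array, and pair 1 differed by 0.14, against 0.77, 0.34 and 0.59 in pairs 2 to 4. The third, 10359266, was the dimmest, at 8.52, 8.42, 8.70 and 8.71 in Dom/Dom and 8.17, 8.09, 8.36 and 8.36 in WT. Its 4 pair differences were nearly equal, from 0.33 to 0.35. The groups did not overlap on any of the 3, and the 3 mean differences were 0.59, 0.46 and 0.34. All 3 read the same RNA on the same arrays, so they do not count as replicates of one another.

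**Figure D1:**
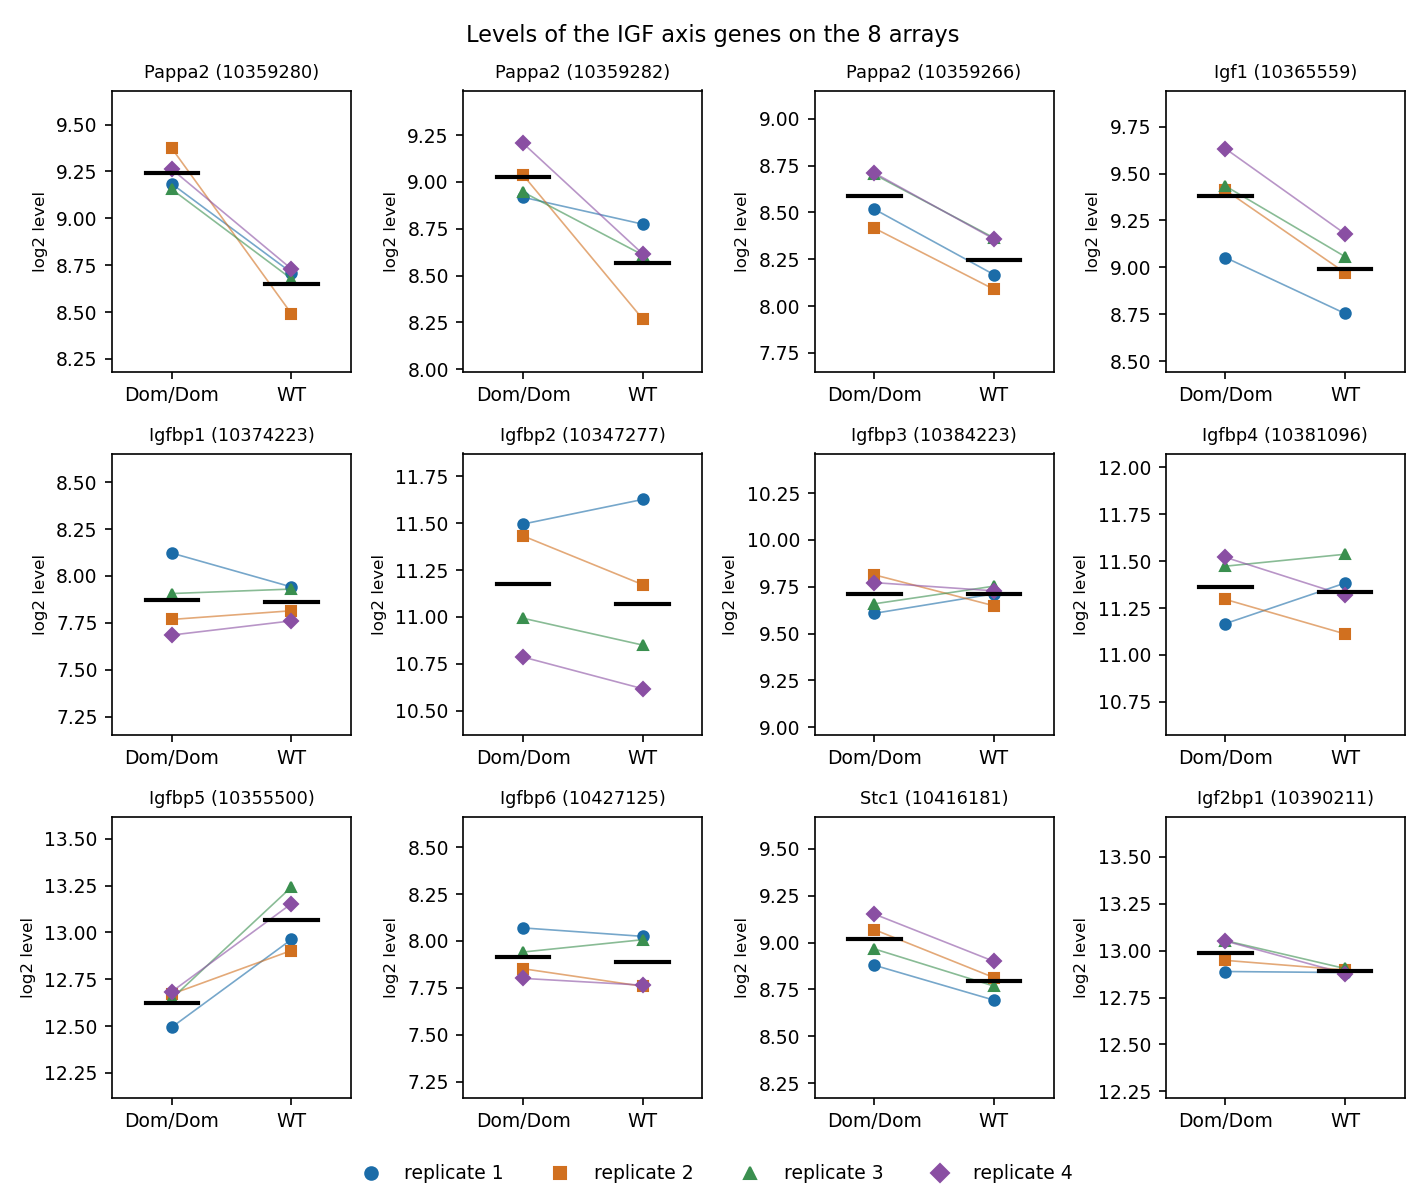
Log2 level of the 10 IGF axis genes, with 3 panels for Pappa2, on the 4 Dom/Dom arrays (left) and the 4 WT arrays (right) of each panel; thin lines join same-numbered arrays, black bars are means, and all vertical axes have the same span. Pappa2 lies higher in Dom/Dom on all 3 probe sets and Igfbp5 lower, while the Igf1 lines run parallel at different heights.

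Igf1, the ligand of the list (probe set 10365559, chromosome 10), read 9.05, 9.41, 9.43 and 9.63 in Dom/Dom replicates 1 to 4, against 8.75, 8.97, 9.06 and 9.18 in WT replicates 1 to 4. The groups overlapped, since Dom/Dom replicate 1 lay below WT replicates 3 and 4. Within each pair, however, the mutant array was the higher, by 0.30, 0.44, 0.38 and 0.45. The mean difference was 0.39, or 1.31-fold, with a standard error of 0.13 across unpaired arrays and 0.05 with the replicate number as a block. Replicate 1 was the lowest and replicate 4 the highest array in both genotypes.

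Among the carrier genes, Igfbp5 was the one with a difference in every pair. Its product binds extracellular matrix as well as IGFs and is cleaved by the Pappa2 protease. Probe set 10355500 on chromosome 1 read 12.49, 12.67, 12.65 and 12.68 in Dom/Dom, against 12.96, 12.90, 13.24 and 13.15 in WT. All 4 mutant arrays were below all 4 wild-type arrays. The mean difference was -0.44 with a standard error of 0.09, which is 1.36-fold lower in Dom/Dom, and the pairs gave -0.47, -0.23, -0.59 and -0.47.

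Igfbp2, expressed widely in embryonic tissues, lies next to Igfbp5 on chromosome 1 but did not share its pattern. It read 11.50, 11.43, 10.99 and 10.79 in Dom/Dom, against 11.63, 11.17, 10.85 and 10.62 in WT. The order of the replicate numbers was the same in both genotypes, with replicate 1 highest and replicate 4 lowest. The mean of each number spanned 0.86 log2 units, against a genotype difference of 0.11 ± 0.22 (SE), whose sign was negative in pair 1 (-0.13) and positive in pairs 2 to 4 (0.14 to 0.26).

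The remaining carrier genes lay close together in the 2 genotypes. Igfbp3, the main carrier of IGFs in serum and the other substrate of Pappa2, stood at 9.71 ± 0.10 in Dom/Dom and 9.71 ± 0.04 in WT (SD, n = 4 each), with pair differences from -0.10 to 0.16. Igfbp4, a substrate of the related protease Pappa, stood at 11.36 ± 0.16 in Dom/Dom and 11.34 ± 0.18 in WT, with pairs from -0.22 to 0.20. The standard errors of these 2 differences were 0.08 and 0.11.

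Igfbp1, a carrier made mainly by the liver and decidua, and Igfbp6, which prefers the product of Igf2, were dim. Igfbp1 stood at 7.87 ± 0.19 in Dom/Dom and 7.86 ± 0.09 in WT, and Igfbp6 at 7.92 ± 0.12 in Dom/Dom and 7.89 ± 0.15 in WT (SD, n = 4 each). Both means lay under the 95th percentile of the olfactory receptor probe sets, so expression above background was not shown for either. The other 8 members were above it. Igfbp1 and Igfbp3 are neighbours on chromosome 11, as Igfbp2 and Igfbp5 are on chromosome 1.

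Stc1, on the inhibitor side, read 8.88, 9.07, 8.97 and 9.15 in Dom/Dom, against 8.69, 8.81, 8.77 and 8.90 in WT (probe set 10416181, chromosome 14). The groups overlapped by a single array of each genotype, and each mutant array was above its same-numbered partner, by 0.19, 0.26, 0.20 and 0.25. The mean difference was 0.22, or 1.17-fold, with a standard error of 0.09, or 0.05 with the block. Stc2, the other stanniocalcin gene, stood at 9.47 ± 0.33 in Dom/Dom and 9.46 ± 0.39 in WT (SD, n = 4 each), with a pair 1 difference of -0.45 against 0.07 to 0.25 in the others.

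Igf2bp1 was bright and nearly level. Its brightest probe set, 10390211 on chromosome 11, read 12.89, 12.95, 13.05 and 13.05 in Dom/Dom, against 12.88, 12.90, 12.90 and 12.88 in WT. The mean difference was 0.09 with a standard error of 0.07, and pairs 1 and 2 differed by 0.01 and 0.05, pairs 3 and 4 by 0.15 and 0.17. Its second probe set, 10390209, behaved otherwise. There replicate 2 was the highest in each genotype, at 11.89 in Dom/Dom and 11.68 in WT, while replicates 1, 3 and 4 lay at 11.06 to 11.26 in Dom/Dom and 11.00 to 11.20 in WT.

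**Figure D2:**
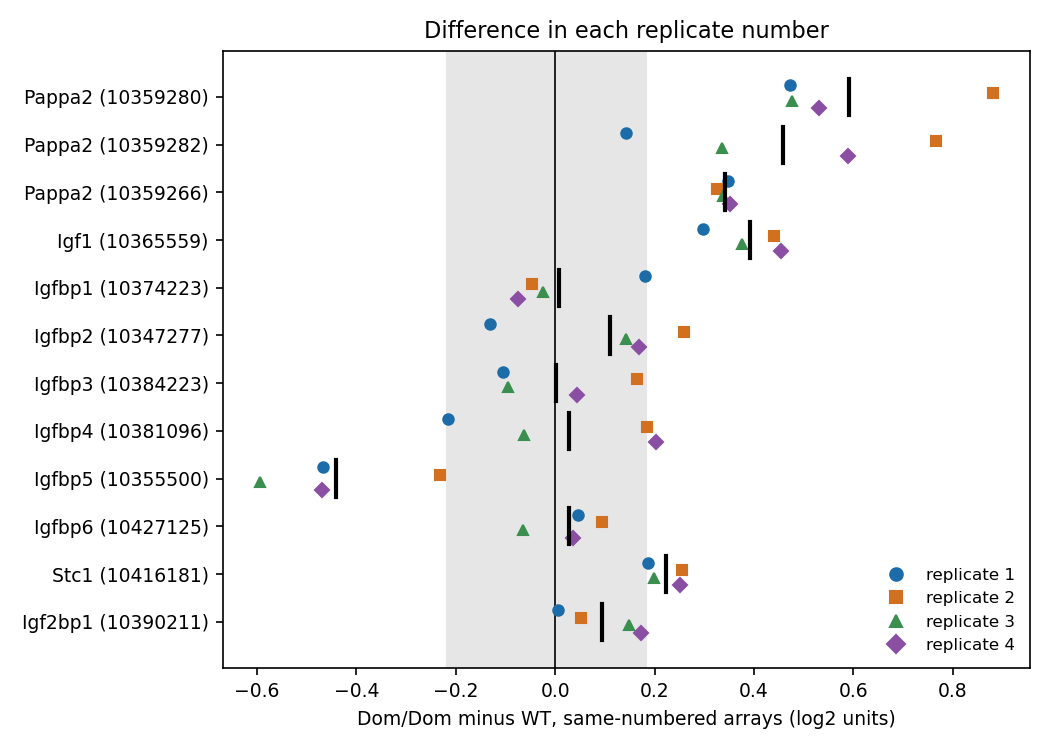
Dom/Dom minus WT in log2 units for each pair of same-numbered arrays (symbols) and on average (black bars); the grey band runs from the 5th to the 95th percentile of the average difference over all 6855 genes, -0.22 to 0.18. The 3 Pappa2 probe sets, Igf1 and Stc1 average above the band and Igfbp5 below it.

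Read together, 4 of the 10 members were higher in Dom/Dom in all 4 pairs (Pappa2, Igf1, Stc1 and Igf2bp1), as were 10.4% of all tested genes. One, Igfbp5, was lower in all 4, as were 10.7%. Groups that did not overlap were found for Pappa2 on the higher side, where 1.18% of all genes lay, and for Igfbp5 on the lower side, where 2.6% lay. The median difference of the 10 members was 0.06, against -0.00095 over all genes. In limma's fit without a block at an adjusted p under 0.05, Pappa2 was the 1 member called higher, against 0.0729% of all genes, and 0 members were called lower, against 0.408%. With the replicate number as a block, 2 were called higher, Pappa2 and Igf1, against 0.452% of genes, and 1 lower, Igfbp5, against 1.05%. These calls come from the comparison around which the list was put together, so they describe the members and support nothing further.

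The call of Pappa2 without the block was lost when any 1 of the 4 arrays of replicates 3 and 4 was left out, though the difference then stayed at 0.58 to 0.62, and it was also lost when all 16381 probe sets were tested together or the 3 probe sets were averaged (0.46). With the block, the calls of Pappa2, Igf1 and Igfbp5 were lost without pair 3 or pair 4, and that of Igf1 also without pair 2. Calls were gained too. Igfbp5 was called lower without the block under array weights and under the variance trend, and Stc1 was called higher with the block without pair 1.

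The size of the genotype difference was set beside the spread between replicate numbers, taken as the range of the 4 means of same-numbered arrays. For Pappa2 the numbers spanned 0.08 and the genotypes differed by 0.59. For Igfbp5 the corresponding values were 0.22 and 0.44. Igf1 had the reverse order, with 0.50 between numbers and 0.39 between genotypes, and Stc1 was nearly even at 0.24 and 0.22. In 7 of the 10 members the numbers spanned more than the genotypes differed, the exceptions being Pappa2, Igfbp5 and Igf2bp1. Over all tested genes this share was 93.0%.

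**Figure D3:**
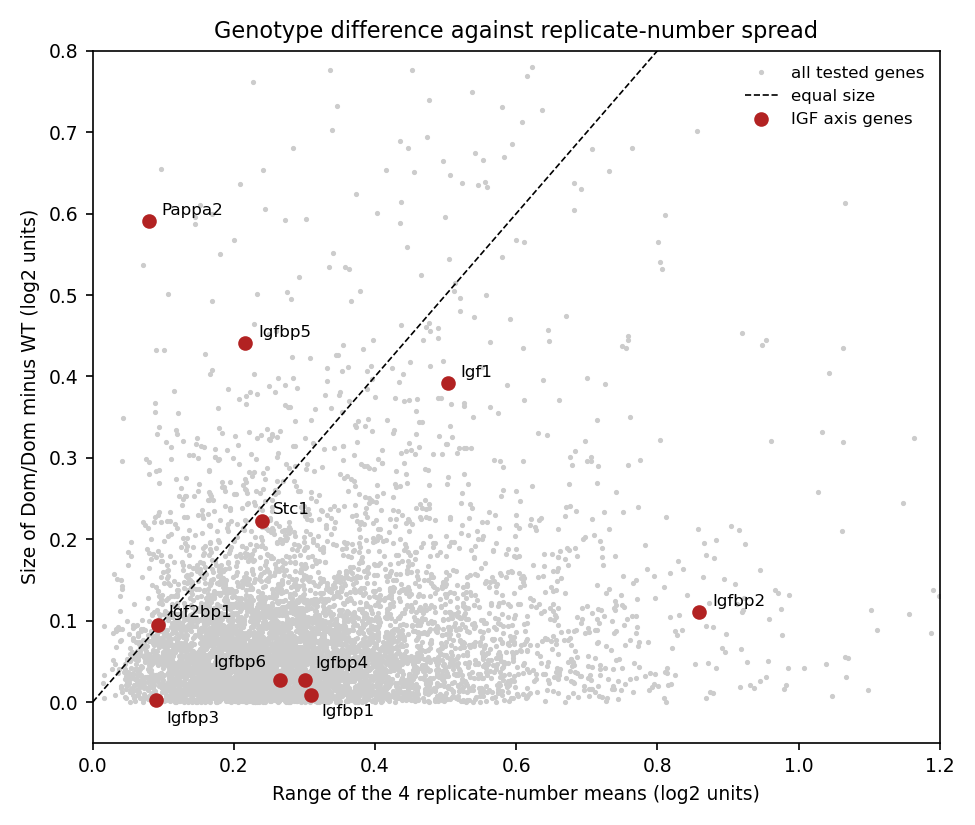
Size of the Dom/Dom minus WT difference (vertical) against the range of the 4 replicate-number means (horizontal), both in log2 units, for the 10 IGF axis genes (red) and all tested genes (grey; 52 lie beyond the axes). Pappa2 and Igfbp5 lie far above the dashed line of equal size, Igf2bp1 just above it, and Igfbp2 lies far to the right at 0.86.

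Other genes of the pathway were taken from 2 lists, and of 81 genes listed 27 were measured. Of 19 genes for signalling and feedback in the pathway (58 listed), 0 passed the threshold in either direction, without or with the block. No carrier gene and no IGF receptor gene was among the 19. Of 8 genes for proteases or binding partners of the carriers (23 listed), 0 passed as well. Both lists together held 2 genes at an unadjusted p under 0.05, Plau and Ctsl, which is 7.41% of the 27, near the 6.11% of all tested genes (419) at that level. The median difference was 0.03 over the 27 genes.

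Plau, which encodes the urokinase that activates plasmin, a protease of several carriers, read 10.10, 10.26, 10.30 and 10.51 in Dom/Dom, against 9.99, 9.77, 9.82 and 9.98 in WT. Each mutant array was above each wild-type array, and the means differed by 0.40 (adjusted p in limma = 0.167, or 0.0724 with the replicate block). Ctsl, a lysosomal cysteine protease, read 11.92, 12.00, 11.96 and 11.90 in Dom/Dom and 12.14, 12.16, 12.36 and 12.41 in WT. Its groups did not overlap either, with a difference of -0.32 (limma adjusted p = 0.201, or 0.0957 with the block). Nor did those of Ctsb, at 11.79 ± 0.06 in Dom/Dom and 11.94 ± 0.06 in WT (SD, n = 4 each). Of the 27 genes, 1 thus lay apart on the higher side and 2 on the lower, against 1.18% and 2.6% of all tested genes.

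Apart from Plau and Ctsl, the other 25 genes, Ctsb among them, all had differences between -0.20 and 0.18. The lower end was Foxo3, a transcription factor that IGF signalling holds out of the nucleus, at 10.47 ± 0.18 in Dom/Dom and 10.67 ± 0.15 in WT (SD, n = 4 each; limma adjusted p = 1.00; 0.265 with the block). Grb10, an imprinted adaptor that dampens receptor signalling, stood at 13.89 ± 0.15 in Dom/Dom and 13.92 ± 0.14 in WT. Irs1, the docking protein below the receptor, stood at 12.02 ± 0.31 in Dom/Dom and 12.01 ± 0.31 in WT, and its 8 arrays differed by number, with replicates 3 and 4 between 11.72 and 11.85 and replicates 1 and 2 between 12.03 and 12.43. The kinase gene Akt1 stood at 12.74 ± 0.02 in Dom/Dom and 12.76 ± 0.09 in WT.

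**Figure D4:**
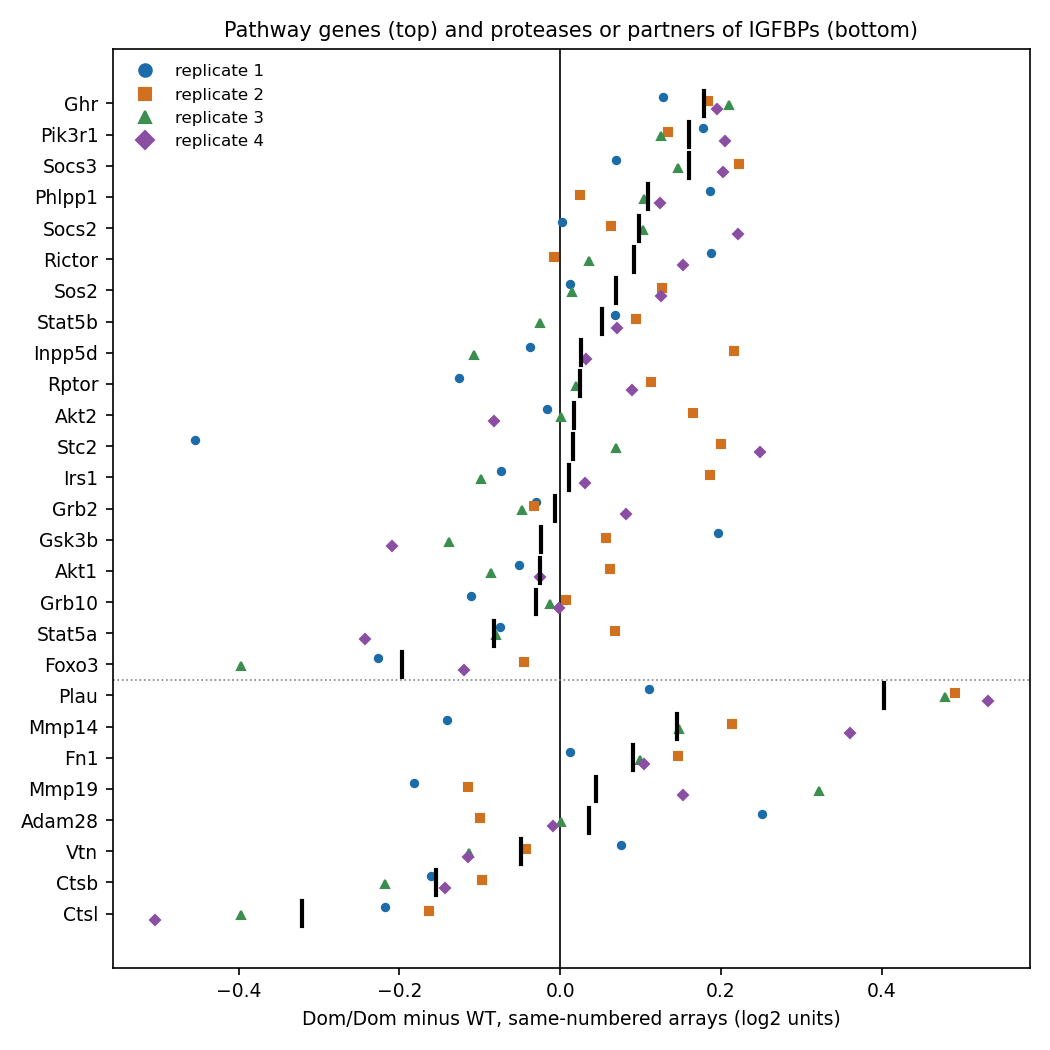
Dom/Dom minus WT in log2 units for the 19 measured genes of the IGF pathway (top) and the 8 measured proteases or partners of the carriers (bottom); symbols are pairs of same-numbered arrays and black bars the average. Plau at 0.40 and Ctsl at -0.32 are the outermost averages, and none of the 27 genes passed the threshold.

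The genes whose profile over the 8 arrays was nearest to that of Pappa2 were found by the root mean square difference after each gene's own mean was taken off, among 6854 genes. They were Ift27, a part of intraflagellar transport (0.11 log2 units), Fam163a (0.14), Atp1b1, a subunit of the sodium pump (0.14), Nfatc4, a calcium-regulated transcription factor (0.14), and Plau (0.15). Pappa2 itself varied by 0.31 about its mean on the same measure. The 5 genes were picked by this likeness, so their genotype differences of 0.57, 0.50, 0.46, 0.35 and 0.40 are part of the choice. Fam163a and Atp1b1 lie on chromosome 1, as Pappa2 does, and Ift27 lies on chromosome 15, as Sox10 does. Nfatc4 and Plau lie on chromosome 14. Any part of chromosome position in the likeness was not tested.

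**Figure D5:**
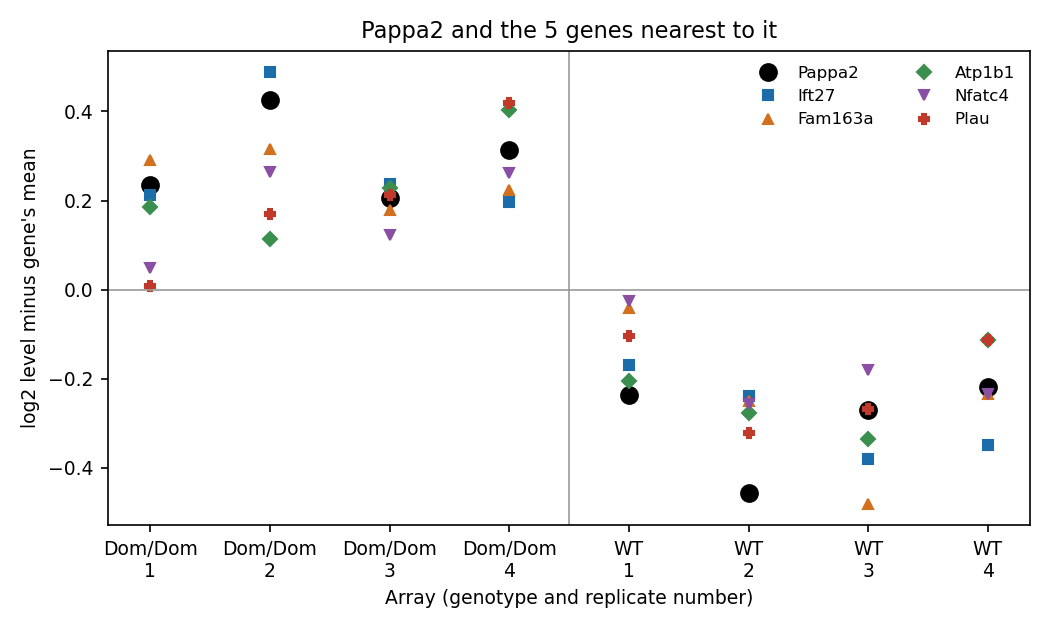
Log2 level minus the gene's mean over the 8 arrays for Pappa2 (large black circles) and the 5 genes nearest to it, for Dom/Dom arrays (left) and WT arrays (right). All 6 genes lie above 0 on the 4 Dom/Dom arrays and below 0 on the 4 WT arrays.

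For the other members the nearest gene was at 0.11 or less; a flat profile has many near neighbours by this measure. The nearest to Igf1 was Popdc2 (0.05, against 0.27 for Igf1 about its own mean), and the nearest to Igfbp5 was Lgmn, a lysosomal protease gene (0.06, against 0.25). Igfbp2 had Tbrg4 at 0.11, against 0.34, and Stc1 had Asic2 at 0.04, against 0.14. The nearest to Igfbp4 was Elk3 (0.05), to Igf2bp1 Hdlbp (0.04), to Igfbp3 Med31, to Igfbp1 Mirt2 and to Igfbp6 Gpa33 (0.03 each). Among members the nearest pair was Igfbp1 and Igfbp6, the 2 dim genes (0.06).

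The flanking genes of Pappa2 on chromosome 1 were Astn1, at 10.06 ± 0.47 in Dom/Dom and 10.22 ± 0.12 in WT, and Cop1, at 11.12 ± 0.35 in Dom/Dom and 11.05 ± 0.29 in WT (SD, n = 4 each). Their differences were -0.16 and 0.07, and neither passed (limma adjusted p = 1.00 for both).

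Markers of other cells also differed in mean level between the genotypes, but in each list with measured genes the array means of the 2 genotypes overlapped. Of 7 neural tube markers listed, 0 were measured, so cells of the explanted tissue itself could not be assessed. In the fit without a block, 0 of the fibroblast, smooth muscle, skeletal muscle, epithelial and neuronal markers passed the threshold. With the block, 1 fibroblast marker was called higher, and 1 epithelial and 1 neuronal marker lower, against 0.452% of all genes higher and 1.05% lower. In cultures such as these, fewer cells of a type and less RNA per cell cannot be told apart. Of 8 measured fibroblast and mesenchyme markers, 7 were higher in Dom/Dom, with list means of 9.54 to 10.14 in Dom/Dom and 9.53 to 9.76 in WT. One of the 7, Lum, lay at or below the olfactory receptor limit and was higher in only 2 of 4 pairs, as was Col6a3. All 4 smooth muscle markers were higher, with means of 9.93 to 10.12 in Dom/Dom and 9.59 to 9.96 in WT. Of 5 somite and skeletal muscle markers 4 were higher, but all 5 lay at or below the olfactory receptor limit, with means of 7.75 to 8.21 in Dom/Dom and 7.75 to 7.84 in WT. Of 8 epithelial markers 7 were lower, with means of 9.15 to 9.49 in Dom/Dom and 9.38 to 9.64 in WT, and Grhl1 and Grhl2 lay at or below the limit. Higher in all 4 pairs were 3 fibroblast, 2 smooth muscle and 3 skeletal muscle markers, against 10.4% of all genes. Lower in all 4 were 2 epithelial markers and 1 neuronal marker, against 10.7%.

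Of 8 neural crest markers 6 were lower. Without the block 2 of them, Sox10 and Erbb3, were called lower, against 0.408% of all genes. With the block 3 were called lower, Tfap2a being the third, against 1.05%. Groups lay apart on the lower side for 4 of the 8, against 2.6% of all genes. Neuronal markers were lower in 5 of 5 cases, with means of 9.86 to 10.31 in Dom/Dom and 10.25 to 10.82 in WT. The endothelial marker Pecam1, the leukocyte marker Ptprc and the endoderm marker Sox17 were at or below the limit. The embryonic globin gene Hba-x, of red cells, was bright and variable, at 12.02 ± 0.90 in Dom/Dom and 12.71 ± 0.91 in WT (SD, n = 4 each), and lower in Dom/Dom in 3 of 4 pairs. Gata4, of endoderm and heart, lay above the limit at 8.67 ± 0.23 in Dom/Dom and 8.61 ± 0.29 in WT. The part of these marker differences in the levels of Pappa2, Igf1, Stc1 and Igfbp5 was not tested.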

How the data were processed

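The authors deposited log2 expression values, 1 column per array and replicates not pooled. Per the submitters' processing notes, RMA and Partek were used; their versions and settings are not stated in the labels. RMA corrects background, normalises arrays and summarises probes, which compresses differences of dim probe sets. The labels' protocols state 250 ng of total RNA per array. No detection calls were used, and the number of arrays limits precision; array medians ran from 8.60 to 8.78. The table held 16381 probe sets, part of the array, of which 7416 had 1 gene symbol in the platform annotation, 509 several and 8456 none. The brightest probe set per gene left 6855 genes, 6829 of them matched by gene identifier to RefSeq (GRCm38.p6).

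All genes were fitted in limma 3.58.1 (R 4.3.3; lmFit, eBayes, genotype alone, two-sided, Benjamini-Hochberg over all genes, threshold 0.05), and the steps were tested on simulated data. In the measured data, deviations from genotype means correlated at 0.47, 0.58, 0.61 and 0.67 between same-numbered arrays. Pairs of arrays with unlike numbers ran from -0.56 to 0.38. The highest of these, 0.38 and 0.21, joined replicates 3 and 4, and replicates 1 and 2 gave 0.11 and 0.14. The numbers were treated as pairs from the data, not the labels, and a split of the first pair of replicates from the other two is part of this likeness. Alternatives were a replicate block, 2 renormalizations, other probe set choices, a dim-gene filter, array weights, a variance trend and leaving out arrays. Named genes were the members, Sox10, pathway genes past the threshold with either fit or among the 3 largest differences, and nearest profiles. Genes outside this rule, such as flanking genes, Stc2, Ctsb, Grb10, Irs1 and Akt1, were added after their values were seen. Members and lists were chosen with earlier results of these data known.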

Additional observations from a re-analysis of the deposited data

Results flagged for a closer look

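Of 60 sets of 4 arrays of one genotype searched for the named genes and probe sets, 1 held a value far from the other 3, where about 1 in 20, or 3, are found by chance. This was Ift27, the nearest profile to Pappa2, which stood at 10.26 in replicate 2 of Dom/Dom, above the 9.97 to 10.01 of replicates 1, 3 and 4. Pappa2 was also highest in that array among Dom/Dom arrays (9.37).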

How the results depend on the processing

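The differences of Pappa2 (0.46 to 0.63), Igf1 (0.31 to 0.50), Stc1 (0.16 to 0.27), Igf2bp1 (0.03 to 0.13) and Igfbp5 (-0.51 to -0.38) kept their sign under all 20 alternatives run. Many of these could not change it. The block on all arrays, the variance trend, testing all probe sets and the dim-gene filter leave a difference as it is. Leaving out a pair cannot flip these genes, which have 1 sign in all 4 pairs. Leaving out 1 array cannot flip Pappa2 or Igfbp5, whose groups do not overlap. Beyond 1 SD, averaging its probe sets moved Pappa2 to 0.46 and median centring moved Igf2bp1 to 0.03. Igfbp1, Igfbp2, Igfbp3, Igfbp4 and Igfbp6 changed sign in some alternatives, all within 1 SD. The filter on dim genes gave no value for Igfbp1 and Igfbp6. Over all genes, 33 passed (5 higher, 28 lower), against 103 with the replicate block (31 higher, 72 lower), 190 with array weights, 4 with all probe sets tested, 10 to 51 without single arrays, and 475, 112, 15 and 13 with the block and pair 1, 2, 3 or 4 left out, an alternative chosen after seeing the data. The cause was not tested. The count of 0 pathway genes became 2, Plau higher and Ctsl lower, with array weights, and 0 to 2 with the block and a pair left out, where the 2 came without pair 1.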
